A study of Rattus norvegicus with 18 samples.

Results

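Cells of the inner medullary collecting duct (IMCD), the last stretch of the rat kidney tubule, were compared at 1 osmolality reached in 2 ways. Of the 18 whole-transcript arrays of the series, 6 were compared, chosen by their labels. The spread behind p-values, SEs and intervals was estimated from all 18. The 3 acute arrays came from primary cultures grown at 300 mosmol/kg and then held at 600 mosmol/kg for 24 h. The 3 long-term arrays came from primary cultures grown at 600 mosmol/kg with no further challenge. Both groups carried no drug. For reference, the 3 arrays of the 300 mosmol/kg culture, from which the acute cells were moved, and the 3 arrays of the same 24 h challenge run with 5 µM cyclosporin A, a calcineurin inhibitor, are given beside them. The labels do not state the strain or age of the rats, the number of animals or cultures behind each array, how long the cells were in culture, or a mock change of medium. P-values therefore weigh a difference only against how much arrays of the same group differ, which can be technical variation. The osmotic history of a group also cannot be told apart from its time in culture or its preparation. The other arrays of the series, challenged at a higher osmolality without or with the drug, entered only the estimate of the spread.

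The inner medulla is the saltiest tissue of the body, and its collecting duct cells live in a hypertonic fluid. A cell moved to such a fluid first loses water and gains salt, and later replaces the salt with organic osmolytes such as sorbitol, inositol, betaine and taurine, largely through the transcription factor NFAT5. The principal cells of the duct reabsorb water through aquaporin channels under the control of vasopressin, and both hypertonicity and vasopressin are known to act on aquaporin 2.

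Each array reports 28328 features (probe sets, most of them standing for 1 transcript). The deposited values are logarithms of unstated base, so differences are given in log units. If the base was 2, a unit equals a doubling (2-fold), and if the authors took natural logarithms it equals 2.72-fold. Array medians of the 300, acute and long-term groups lay between 3.62 and 3.65. The median feature had a standard deviation of 0.117 over the acute arrays and 0.116 over the long-term arrays. The root mean square distance between 2 arrays over all features was 0.267 to 0.272 within the acute group and 0.267 to 0.282 within the long-term group. Between an acute and a long-term array it was 0.399 to 0.418, and between an acute array and an array of the 300 culture it was 0.358 to 0.382. The long-term arrays lay 0.420 to 0.439 from the 300 culture. By this measure every acute array was nearer to every array of the 300 culture than to any long-term array.

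Of the 28328 features, 4655 (16.4%) differed between acute and long-term 600 mosmol/kg at a limma adjusted p under 0.05. They split into 2179 higher (7.69%) and 2476 lower (8.74%) in the acute arrays. A difference of at least 1 log unit was called for 590 features (2.08%), of which 202 were higher and 388 lower. With the spread estimated from these 6 arrays alone, 3071 features were called, 1303 of them higher. The 95% interval of the difference lay within 0.5 log units of 0 for 17042 features (60.2%), which bounds how far these could have differed. Values of the 2 groups did not overlap for 8754 features (30.9%). For scale, 4087 features (14.4%) were called between the acute arrays and the 300 culture and 4863 (17.2%) between the long-term arrays and the 300 culture, comparisons that share arrays with this one. In the plot of group means the called features leave the diagonal on both sides.

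**Figure D1:**
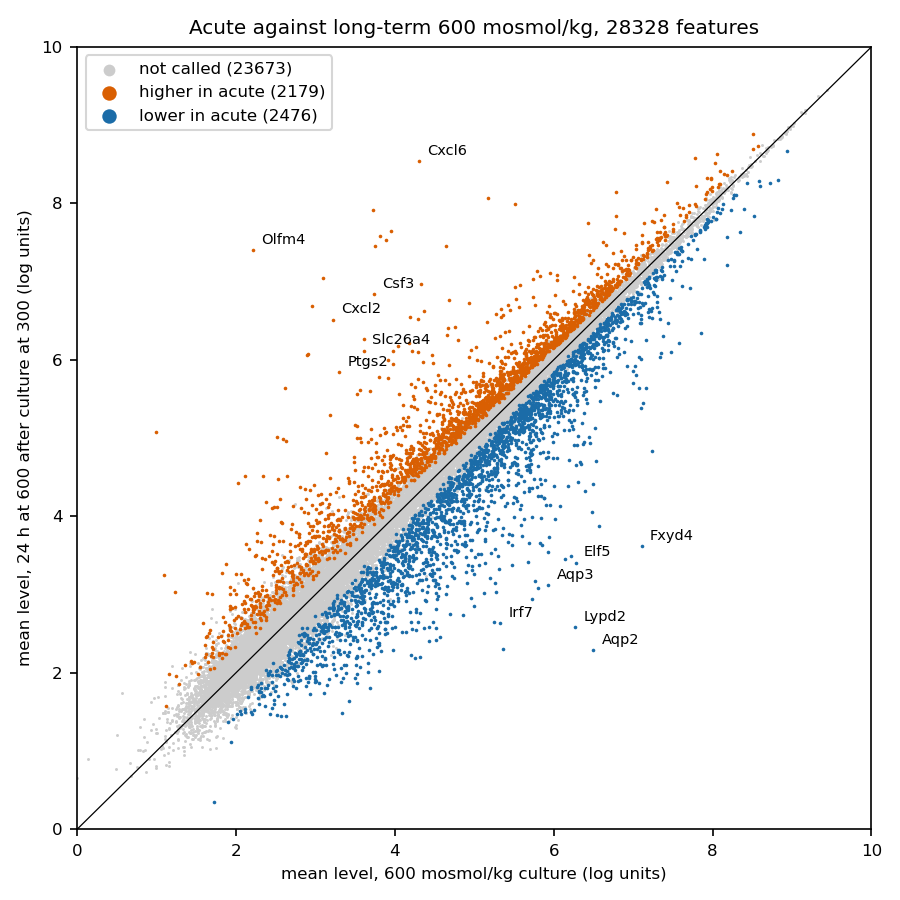
Mean level of each of the 28328 features over the 3 long-term arrays (horizontal axis, log units) and over the 3 acute arrays (vertical axis, log units). Orange points are the 2179 features called higher in the acute arrays, blue points the 2476 called lower and grey points those not called. The line marks equal levels.

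For the gene lists that follow, each of 14499 gene symbols is represented by 1 feature. Of these symbols, 10.1% were called higher and 12.4% lower in the acute arrays, and the median difference over all of them was 0.0087 log units. The counts of each list are to be read against these shares. A list's members were picked for known roles and are no random draw, so neither its count nor its median carries a test.

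The 4 DNA stretches below are shown early because the lists with the most members on one side hold genes with well-known control elements close to their start sites. The stretches are the 250 bases before the RefSeq transcription start on the rat assembly GRCr8, written 5′ to 3′ on the gene's own strand. Capitals mark letters found by a search of both strands. In Cxcl6 (chr14:17596418-17596667, minus strand) they mark a pair of overlapping matches, one on each strand, to GGG, any 3 bases, TTCC, the form that NF-kB sites take. In Cxcl2 (chr14:17467256-17467505, minus strand) they mark separate matches to the same letters. In Irf7 (chr1:205800024-205800273, minus strand) they mark a match to GAAA, any 2 bases, GAAA, the form of an interferon-stimulated response element, which lies on the opposite strand and so is read here as its complement. In Cdc20 (chr5:137255800-137256049, minus strand) they mark 2 CCAAT boxes and TTTGAA, the form of the cell cycle homology region of mitotic genes.
Cxcl6: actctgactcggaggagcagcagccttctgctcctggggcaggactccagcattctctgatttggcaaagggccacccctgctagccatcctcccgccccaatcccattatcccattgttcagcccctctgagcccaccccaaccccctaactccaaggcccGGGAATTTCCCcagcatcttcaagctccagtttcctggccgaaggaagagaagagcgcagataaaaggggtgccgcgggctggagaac
Cxcl2: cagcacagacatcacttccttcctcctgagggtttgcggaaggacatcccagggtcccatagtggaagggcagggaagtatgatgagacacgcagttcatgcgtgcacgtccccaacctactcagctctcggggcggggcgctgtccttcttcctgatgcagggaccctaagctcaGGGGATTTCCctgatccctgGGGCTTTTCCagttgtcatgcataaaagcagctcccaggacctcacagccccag
Irf7: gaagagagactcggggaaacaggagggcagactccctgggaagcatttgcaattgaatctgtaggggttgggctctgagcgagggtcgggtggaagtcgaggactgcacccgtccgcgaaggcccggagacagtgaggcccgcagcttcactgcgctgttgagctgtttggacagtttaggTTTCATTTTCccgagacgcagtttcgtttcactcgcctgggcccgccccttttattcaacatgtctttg
Cdc20: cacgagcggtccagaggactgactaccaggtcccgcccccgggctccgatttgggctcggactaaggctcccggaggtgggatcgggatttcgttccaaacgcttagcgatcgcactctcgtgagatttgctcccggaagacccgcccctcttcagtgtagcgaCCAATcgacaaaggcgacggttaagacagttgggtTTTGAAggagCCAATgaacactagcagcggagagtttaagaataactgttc

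The interferon letters stood in the 250-base stretch of 12 of 20 interferon response genes with a RefSeq promoter (60%), against 3.29% of 27457 rat promoters. The NF-kB letters stood in 11 of 22 NF-kB genes (50%), against 4.53% of all. CCAAT stood in 22 of 29 mitosis genes (75.9%), against 34.3% of all, and TTTGAA in 13 of 29 (44.8%), against 16%. TGGAAA, the core of the tonicity element bound by NFAT5, stood in 1 of 5 osmolyte genes (20%), against 19.5% of all. A match describes the letters in this window, and the arrays do not measure binding. The members were picked for known roles and the motifs to suit the lists. The shares therefore describe the lists and not the difference between acute and long-term arrays.

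Genes of the principal cell and of urine concentration were low in the acute arrays and high in the long-term arrays. Of 24 measured members, 16 were called lower and 4 higher in the acute arrays, and the median difference was -0.91 log units. The median difference of the same members from the 300 culture was 0.08 in the acute arrays and 1.12 in the long-term arrays. The mean level of the list was 3.84 to 3.85 over the acute arrays, 5.01 to 5.20 over the long-term arrays and 3.66 to 3.73 over the 300 arrays. These are bulk samples, in which fewer cells of a type and less RNA per cell cannot be told apart.

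Aqp2, the vasopressin-regulated water channel of the apical membrane, showed the largest difference of the genes that were lower in the acute arrays. Its level was 2.50, 2.00 and 2.35 in the acute arrays, 6.84, 6.32 and 6.33 in the long-term arrays and 1.62, 1.72 and 1.49 in the 300 arrays. All long-term values lay above all others, and the acute mean lay under the lower quartile of its arrays (2.61), where signal is dim. The difference was -4.21 ± 0.14 (limma SE for 3 against 3 arrays, with the spread estimated over all 18; limma adjusted p = 5.48e-11). This is an 18.55-fold lower level if the logarithm is base 2 and 67.56-fold if it is natural. Because the acute level is dim, this size rests on a level that may be background.

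Fxyd4, the regulator of the sodium pump also called CHIF, read 3.85, 3.68 and 3.32 in the acute arrays and 7.198, 7.123 and 7.002 in the long-term arrays. Its values in the 300 culture were 4.10, 3.77 and 3.93, so the acute group overlapped the 300 group and not the long-term group. The difference was -3.49 ± 0.13 (SE; limma adjusted p = 1.74e-10). Slc14a2, which encodes the UT-A urea transporters, read 3.09, 3.19 and 3.22 in the acute arrays, 6.03, 5.67 and 5.61 in the long-term arrays and 2.06, 1.93 and 1.97 in the 300 arrays. Its acute values overlapped neither culture. They lay 1.18 ± 0.11 above the 300 culture (limma adjusted p = 4.91e-06), and their difference from the long-term culture was -2.60 ± 0.11 (limma adjusted p = 8.33e-10).

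The basolateral water channels were also lower in the acute than in the long-term arrays. Aqp3 differed by -2.82 ± 0.15 and Aqp4 by -2.72 ± 0.15 (SE). Avpr2, the vasopressin V2 receptor that drives aquaporin 2, had a mean of 3.42 in the acute, 5.68 in the long-term and 3.35 in the 300 arrays, a difference of -2.26 ± 0.11. The second vasopressin receptor gene on the list, Avpr1a, differed by -1.36 ± 0.07. Of the transcription factors, Elf5 read 3.36, 3.41 and 3.45 in the acute arrays against 6.41, 6.21 and 6.21 in the long-term arrays, a difference of -2.87 ± 0.12. Gata2 differed by -1.95 ± 0.16 and Gata3, a factor of collecting duct identity whose mean at 300 mosmol/kg was 6.26, by -1.30 ± 0.05. The limma adjusted p of these 7 genes ran from 1.74e-10 to 5.21e-07.

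Sodium handling genes differed by varying amounts. Scnn1a, the alpha subunit of the epithelial sodium channel, differed by -1.32 ± 0.07 from a dim acute mean of 2.44, whereas its partners Scnn1b and Scnn1g were dim in both groups and were not called. Nr3c2, the mineralocorticoid receptor, differed by -0.99 ± 0.18, and Sgk1, the kinase it induces, by -0.18 ± 0.05. The call of Sgk1 was lost without acute replicate 1 (limma adjusted p = 0.0530) and with the 6 arrays alone (0.0939). Cdh16, the kidney cadherin, was close in both groups: its difference was -0.22 ± 0.04, with acute and long-term means of 7.70 and 7.93 against 6.77 at 300 mosmol/kg. The 4 members called higher in the acute arrays were Adcy6 (0.21), Prkar2b (0.28), Pde4d (0.24) and Kcne1 (0.53). The first 3 encode parts of cyclic AMP signalling: a cyclase, a regulatory subunit of protein kinase A and a phosphodiesterase. With the 6 arrays alone 0 of these 4 were called, and leaving out any 1 of the 6 arrays left 1 or 2 called higher.

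**Figure D2:**
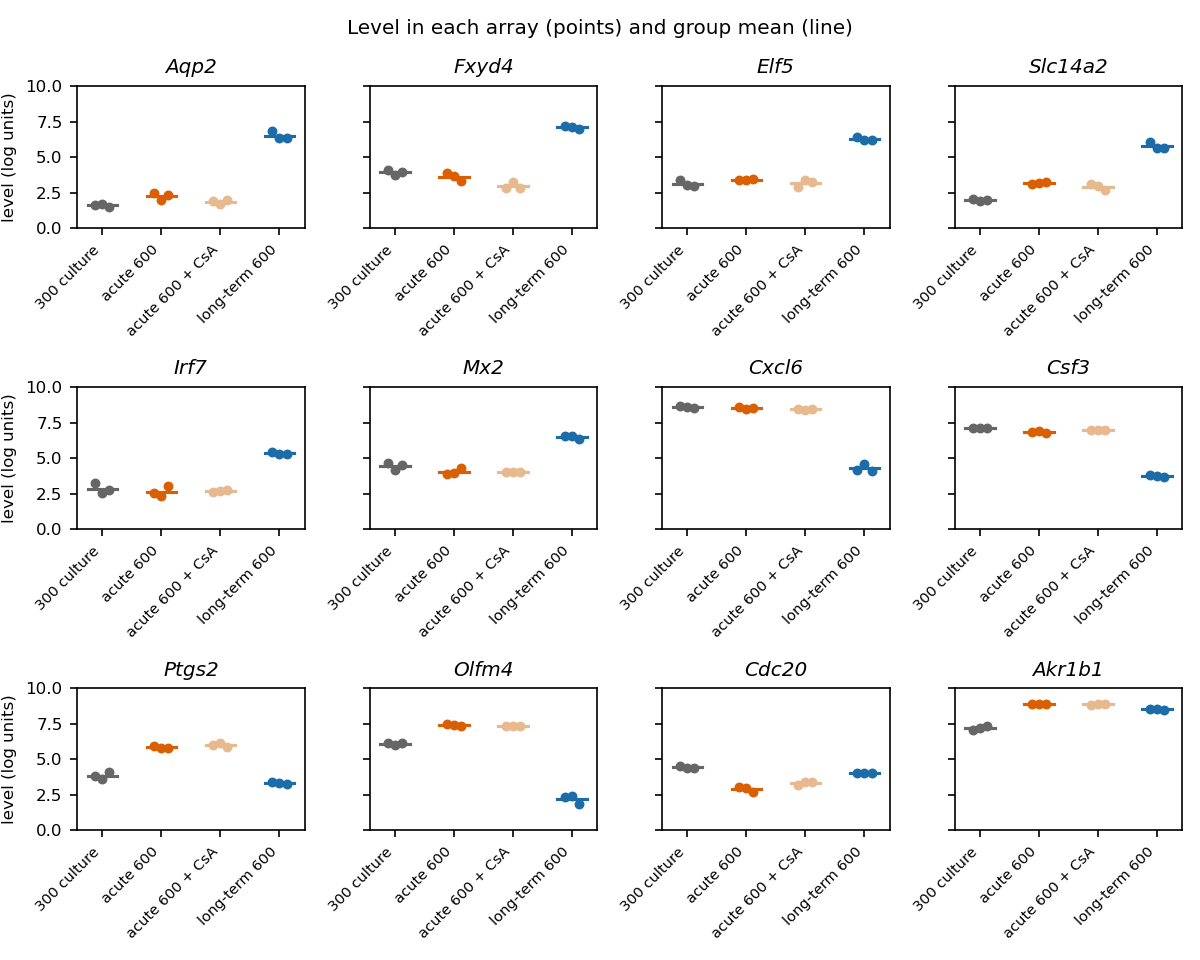
Level in each array (points, log units) and group mean (line) of 12 genes in the 300 mosmol/kg culture, the acute 600 arrays without and with cyclosporin A (CsA), and the long-term 600 arrays, 3 arrays each. Aqp2, Fxyd4, Elf5, Slc14a2, Irf7 and Mx2 are highest in the long-term arrays, Cxcl6 and Csf3 are lowest there, and Ptgs2, Olfm4 and Cdc20 lie outside the range of both cultures in the acute arrays without CsA.

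Markers of neighbouring tubule segments were checked in the same way. Of 12 measured loop of Henle and thin limb genes, 8 were called lower and 1 higher in the acute arrays, with a median of -0.90. Slc14a2 and Bsnd stand on other lists too, but the claudins Cldn19 (-2.18) and Cldn10 (-1.67), the water channel Aqp1 (-1.27) and the cotransporter Slc12a1 (-1.41) moved as well. The mean level of this list was 3.65 to 3.77 over the acute arrays and 4.51 to 4.68 over the long-term arrays, and no member was at 0. Their part in the principal cell result was not tested. Intercalated cell markers were mostly dim: 9 of 15 were under the lower quartile in both groups, among them the anion exchanger Slc4a1, the proton pump subunit Atp6v1b1 and the factor Foxi1. Of the 15, 5 were called lower and 1 (Slc26a4) higher, with a median of -0.17 that was -0.93 over the 6 members left once the dimmest 25% of features were dropped. Proximal tubule markers were dim in 11 of 16 cases, including Slc34a1, Lrp2 and Cubn. Of the 16, 4 were called higher and 0 lower, with a median of 0.11 that was 0.57 over the 4 members left by the same filter.

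Genes that report interferon signalling were a further group on the low side. Of 25 measured members, 22 were called lower and 1 higher in the acute arrays, with a median difference of -1.02. The mean level of the list was 4.38 to 4.45 over the acute arrays, 5.52 to 5.59 over the long-term arrays and 4.51 to 4.70 over the 300 arrays. Against the 300 culture, 9 members were called lower and 1 higher in the acute arrays, where 11.5% and 7.92% of all symbols were called. In the long-term arrays 23 members were called higher and 2 lower than at 300 mosmol/kg, against 11.3% and 12.3% of all symbols.

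Irf7, the factor that amplifies the interferon response, read 2.52, 2.33 and 3.04 in the acute arrays, 5.41, 5.26 and 5.32 in the long-term arrays and 3.23, 2.55 and 2.73 in the 300 arrays. The acute and 300 values overlapped and all long-term values lay above them. The difference was -2.70 ± 0.17 (SE; limma adjusted p = 2.65e-08). Its acute mean of 2.63 lay just above the lower quartile of these arrays (2.61), so this size may rest on background. Its promoter is the one printed above with the interferon letters on the opposite strand.

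Antiviral effectors differed in the same direction. Mx2 read 3.88, 3.95 and 4.31 in the acute arrays against 6.56, 6.53 and 6.37 in the long-term arrays, a difference of -2.44 ± 0.12. Mx1, its paralogue, differed by -2.68 ± 0.24, and Ifit1, which binds foreign RNA caps, by -2.60 ± 0.23. The acute mean of Ifit1 (2.65) was also close to the lower quartile (2.61). Isg15, the ubiquitin-like modifier, read 4.70, 4.63 and 4.77 in the acute and 6.32, 6.35 and 6.34 in the long-term arrays, a difference of -1.64 ± 0.06. Usp18, which removes that modifier, differed by -1.67 ± 0.10, and Rsad2, which encodes viperin, by -1.68 ± 0.14. The limma adjusted p of these 6 genes ran from 1.14e-10 to 1.30e-06.

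Genes of antigen processing were lower by less: Psmb9, an immunoproteasome subunit, differed by -0.96 ± 0.07 and Tap1, the peptide transporter, by -0.72 ± 0.07. Of the factors that carry the signal to the nucleus, Irf9 differed by -1.02 ± 0.07 and Stat2 by -0.44 ± 0.05. The exception was Gbp2, a guanylate-binding protein gene, which was higher in the acute arrays by 0.64 ± 0.08. Gbp5 (-0.15) and Ifi44 (-0.05) were not called. The same letters stood in promoters of both kinds, those of Rsad2, Ifit3 and Tap1 as well as those of Gbp2, Gbp5 and Ifi44.

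Chemokine, cytokine and other NF-kB target genes lay on the opposite side. Of 28 measured members, 24 were called higher and 3 lower in the acute arrays, with a median difference of 0.65. The median difference from the 300 culture was -0.02 in the acute arrays and -0.80 in the long-term arrays. In the long-term arrays 24 members were called lower and 2 higher than at 300 mosmol/kg, whereas the acute arrays had 8 called higher and 10 lower. Over all symbols, 12.3% were called lower and 11.3% higher in the long-term arrays, and 7.92% higher and 11.5% lower in the acute arrays. These contrasts share arrays, so the counts are given side by side only.

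Cxcl6, a neutrophil-attracting chemokine, read 8.62, 8.46 and 8.55 in the acute arrays, 4.19, 4.60 and 4.11 in the long-term arrays and 8.65, 8.56 and 8.52 in the 300 arrays. The acute values overlapped those at 300 mosmol/kg, and the long-term values lay far under both. The difference was 4.24 ± 0.13 (SE; limma adjusted p = 1.04e-11), 18.95-fold if the logarithm is base 2 and 69.71-fold if it is natural. Csf3, the granulocyte colony-stimulating factor, read 6.86, 6.88 and 6.80 in the acute arrays and 3.82, 3.74 and 3.66 in the long-term arrays, a difference of 3.11 ± 0.06 (limma adjusted p = 1.49e-13). Its values at 300 mosmol/kg were 7.13, 7.10 and 7.14, and the acute mean differed from them by -0.28 (limma adjusted p = 0.00690).

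Other chemokines that share the receptor of Cxcl6 differed in the same direction. Cxcl2 read 6.55, 6.52 and 6.48 in the acute arrays and 3.70, 3.32 and 2.63 in the long-term arrays, a difference of 3.30 ± 0.19. Cxcl1 differed by 2.90 ± 0.07 and Cxcl3 by 2.05 ± 0.14. Both Cxcl6 and Cxcl2 carry the NF-kB letters in the sequences printed above, starting 88 bases before the start site in Cxcl6 and 74 and 54 bases before it in Cxcl2. Of the chemokines that draw monocytes, Ccl7 differed by 1.16 ± 0.05 and Ccl2 by 0.48 ± 0.04.

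Of the cytokines, Il1b differed by 2.50 ± 0.11, Il1a by 2.36 ± 0.08, Tnf by 2.09 ± 0.08 and Csf2 by 1.24 ± 0.13. Il1a and Il1b lay between the cultures, their acute means differing from the 300 culture by -0.88 and -0.99. Tnf, in contrast, was 0.38 above it (limma adjusted p = 0.00418). Il6 differed by 0.34 ± 0.07. Of acute-phase products, C3, the complement component, was higher by 1.36 ± 0.06 and Lcn2, the iron-scavenging lipocalin of injured tubules, by 0.80 ± 0.05. Serpina3n, an acute-phase protease inhibitor outside this list, went the other way (-2.73 ± 0.19). The feedback genes of the pathway showed smaller differences: Nfkb1 0.69 ± 0.05, Nfkbia 0.43 ± 0.05 and Nfkbie 0.46 ± 0.05. The 3 members called lower were Cxcl10 (-1.02), which also responds to interferon, Vcam1 (-0.57) and Il18 (-0.38). Of these 3, 1 was called with the 6 arrays alone and when acute replicate 1, acute replicate 2 or long-term replicate 1 was left out, since Vcam1 and Il18 lost their calls.

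Leukocyte and macrophage markers, whose cells also make these cytokines, were split. Of 24 measured members, 7 were called higher and 6 lower in the acute arrays, with a median of -0.07. Their mean level was 4.19 to 4.30 over the acute arrays and 4.25 to 4.34 over the long-term arrays, so the 2 groups overlapped, and it was 5.55 to 5.61 at 300 mosmol/kg. No member was at 0. Ptprc, the pan-leukocyte CD45, differed by 0.09 ± 0.10 (limma adjusted p = 0.637), Csf1r, the macrophage growth factor receptor, by -0.65 ± 0.09 and Ccl6 by 1.27 ± 0.15. Against the 300 culture, 19 of 24 were called lower in the acute and 21 in the long-term arrays, where 11.5% and 12.3% of all symbols were called lower. Single arrays moved the split between acute and long-term: 4 were called higher without acute replicate 2 or long-term replicate 2, 3 were called lower without acute replicate 3, and 2 without long-term replicate 3. With the 6 arrays alone 3 were called lower. MHC class II genes had 3 of 11 called higher in the acute arrays and 0 lower, led by RT1-Bb (1.01 ± 0.11). The part of these cells in the cytokine result was not tested.

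**Figure D3:**
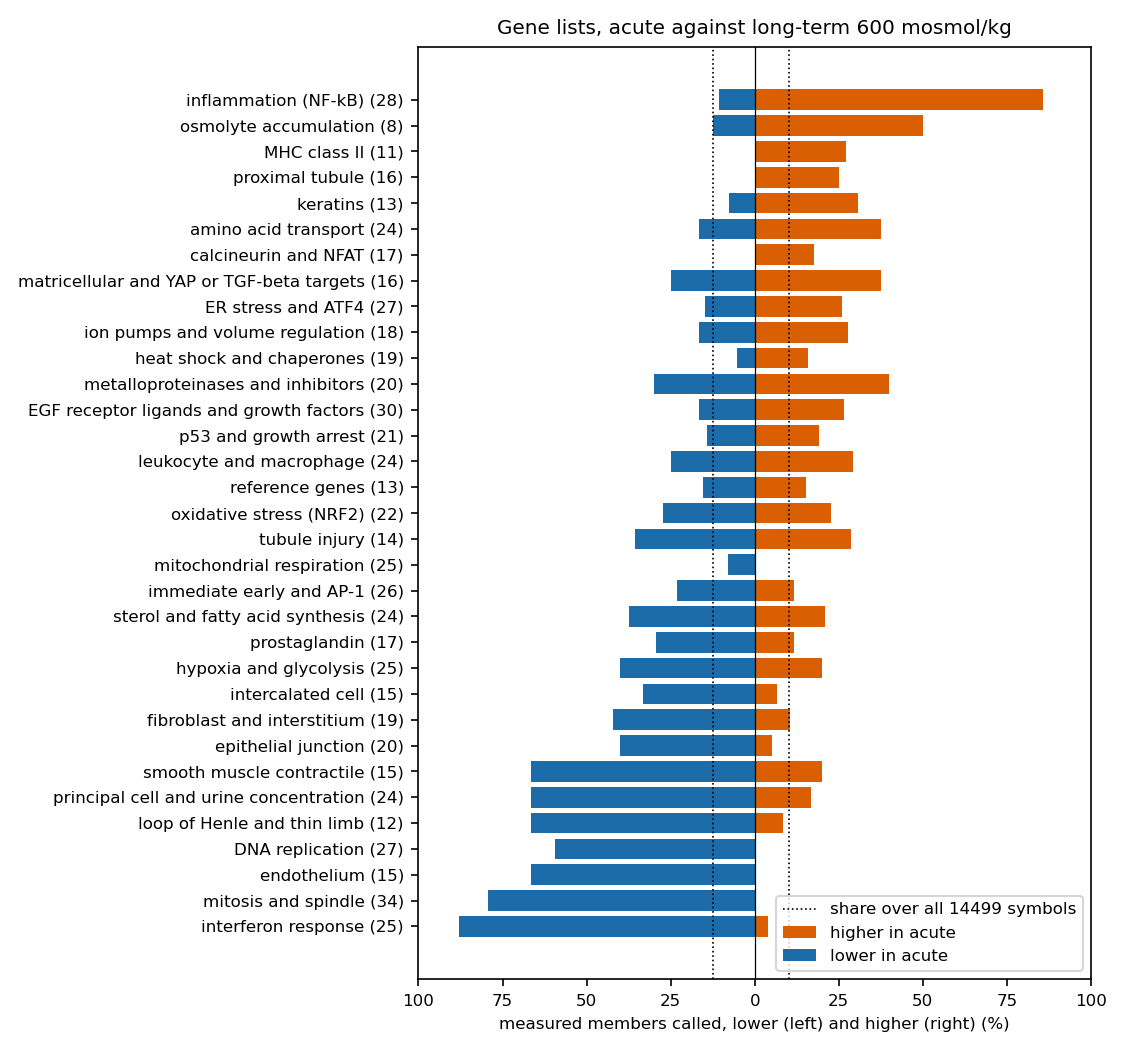
Share of the measured members of each of 33 gene lists (number measured in brackets) called lower (blue, to the left) or higher (orange, to the right) in the acute arrays, in percent. Dotted lines mark the shares over all 14499 symbols, 12.4% lower and 10.1% higher, and lists are ordered by the share called higher minus the share called lower, from interferon response (22 of 25 lower) to NF-kB (24 of 28 higher).

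Most mitosis and spindle genes were lower in the acute arrays than in either culture. Of 34 measured mitosis and spindle genes, 27 were called lower and 0 higher, with a median of -0.59. For 33 of the 34 the acute mean lay below the means of both cultures. The median difference from the 300 culture was -0.80 in the acute arrays, with 29 members called lower, and -0.24 in the long-term arrays, with 9 called lower and 1 higher. Over all symbols, 11.5% were called lower than at 300 mosmol/kg in the acute arrays, and 12.3% lower and 11.3% higher in the long-term arrays. Of 27 DNA replication genes, 16 were called lower and 0 higher, with a median of -0.40, and 23 had an acute mean below both cultures. The remaining 11 were not called against the long-term culture, and 13 of the 27 were called lower in the acute arrays than at 300 mosmol/kg.

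Cdc20, the activator of the anaphase-promoting complex, read 3.07, 2.96 and 2.71 in the acute arrays, 4.05, 4.01 and 4.04 in the long-term arrays and 4.49, 4.39 and 4.35 at 300 mosmol/kg. All acute values lay below all others. The difference from the long-term arrays was -1.12 ± 0.16 (SE; limma adjusted p = 1.07e-04), and its promoter is printed above with CCAAT and TTTGAA. Top2a, the topoisomerase that untangles chromosomes, read 3.68, 3.61 and 3.76 in the acute and 5.23, 5.06 and 5.12 in the long-term arrays, a difference of -1.45 ± 0.16. The cyclin genes Ccnb1 and Ccnb2 differed by -1.04 ± 0.12 and -1.26 ± 0.10. Among replication genes the largest differences were those of Cdc6, which loads the replicative helicase, at -1.50 ± 0.15, Rrm2, a subunit of ribonucleotide reductase, at -1.43 ± 0.16, and Mcm5, a helicase subunit, at -1.13 ± 0.15. The members not called include the kinase gene Aurka (-0.05), Cdca8 (0.13) and the ligase gene Lig1 (0.31). Of cell cycle inhibitors, Cdkn1c, which encodes p57, differed by -1.29 ± 0.07, while Cdkn1a, which encodes p21, had a difference of 0.13 ± 0.06 and was not called.

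**Figure D4:**
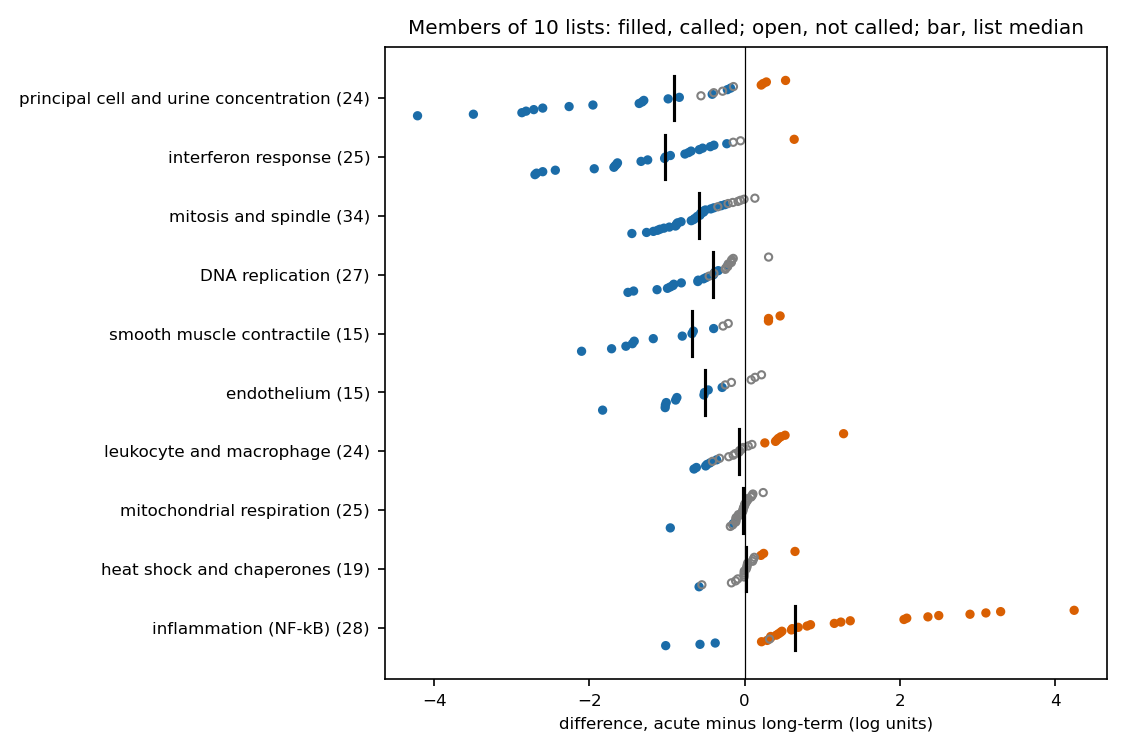
Difference in level, acute minus long-term (log units), of each measured member of 10 gene lists (number in brackets). Filled points passed the test, open points did not, and the bar is the list median, which runs from -1.02 for interferon response to 0.65 for NF-kB genes. Mitochondrial respiration and chaperone genes cluster at 0.

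Osmolyte genes, which include classical tonicity targets, had 4 of 8 measured members called higher and 1 lower in the acute arrays, with a median difference of 0.16. With the 6 arrays alone 3 were called higher. Those called higher include Gdpd5, which breaks down an osmolyte, so the count and median do not measure osmolyte accumulation. The enzyme and the transporter for which both groups lay furthest above the 300 culture, Akr1b1 and Slc5a3, differed between the groups in opposite directions. Akr1b1, the aldose reductase that makes sorbitol, read 8.90, 8.90 and 8.88 in the acute arrays, 8.53, 8.52 and 8.47 in the long-term arrays and 7.04, 7.20 and 7.33 at 300 mosmol/kg. It was 1.70 log units above the 300 culture in the acute and 1.32 in the long-term arrays. The acute values lay above the long-term values by 0.39 ± 0.06 (SE; 95% interval 0.26 to 0.52; limma adjusted p = 3.39e-04). A further feature of Akr1b1 was also called higher, by 0.73 ± 0.23.

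Slc5a3, the sodium-coupled inositol transporter, went the other way: 5.69, 5.67 and 5.65 in the acute and 6.06, 5.95 and 5.87 in the long-term arrays, a difference of -0.29 ± 0.06 (limma adjusted p = 0.00271). Slc6a6, the taurine transporter, differed by 0.62 ± 0.08, and it was lower in the long-term arrays (mean 6.56) than at 300 mosmol/kg (6.83). Slc38a2, the amino acid transporter SNAT2, differed by 0.14 ± 0.05 with a limma adjusted p of 0.0494. That call was lost with the replicate block (0.0603), with quantile normalization (0.0842) and when any 1 of the 6 arrays was left out (0.0697 to 0.163). Gdpd5, which breaks down the osmolyte glycerophosphocholine, was higher by 1.01 ± 0.10, its mean being 3.91 in the acute, 2.90 in the long-term and 4.10 in the 300 arrays. Nfat5 itself was not called: its difference was 0.18 with a 95% interval of -0.08 to 0.43 (limma adjusted p = 0.408). The betaine transporter gene Slc6a12 was not analysed here.

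The chaperone genes measured were nearly level. The Hsp70 genes Hspa1a, Hspa1b and Hspa1l, and Ahsa1, were listed but not analysed here. Of 19 measured members, 3 were called higher (1 with the 6 arrays alone, 5 with an intensity trend) and 1 lower in the acute arrays, with a median of 0.02, and the 95% interval lay within 0.5 log units of 0 for 15 of 19, against 60.2% of all features. Of the 3 called higher, 1 was called without acute replicate 1, acute replicate 2 or long-term replicate 1. Hspa4l, an Hsp110 chaperone known to respond to tonicity, was the largest exception, with 6.03, 6.06 and 6.02 in the acute, 5.34, 5.47 and 5.35 in the long-term and 4.66, 4.69 and 4.64 in the 300 arrays. All acute values lay above the long-term values, by 0.65 ± 0.05 (limma adjusted p = 2.52e-07). Its relative Hsph1 differed by 0.11, with a 95% interval of 0.02 to 0.21, and was not called (limma adjusted p = 0.119). Hspb1, the small heat shock protein, differed by -0.59 ± 0.06, and its acute mean differed from the 300 culture by -0.45.

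**Figure D5:**
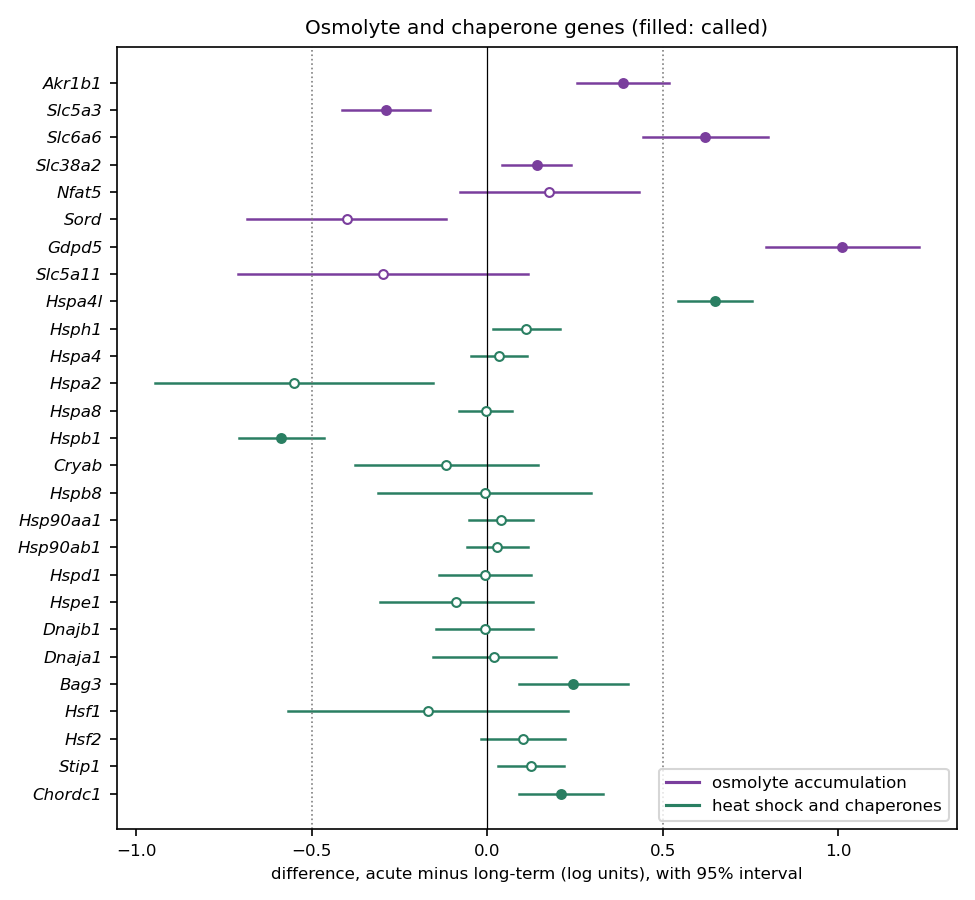
Difference, acute minus long-term (log units), with its 95% interval for the 8 osmolyte and 19 chaperone genes measured; filled points passed the test. Dotted lines mark 0.5 log units on either side of 0. Most chaperone intervals lie between them, while Gdpd5 (1.01), Hspa4l (0.65), Slc6a6 (0.62) and Hspb1 (-0.59) stand out.

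Salt transport and volume genes were mixed, with 5 of 18 called higher and 3 lower. With the 6 arrays alone 2 were called higher, and 3 with the 9 arrays of the 300, acute and long-term groups. Slc12a2, the sodium, potassium and chloride cotransporter NKCC1 that refills shrunken cells, was higher by 0.41 ± 0.04, and Atp1b1, the beta subunit of the sodium pump, by 0.21 ± 0.05, a call that the 6 arrays alone did not give (limma adjusted p = 0.0943). Fxyd2, the gamma subunit of the pump, had means of 5.48 in the acute and 5.58 in the long-term arrays, against 3.93 at 300 mosmol/kg. It was not called between the acute and long-term arrays (-0.10 ± 0.10, 95% interval -0.31 to 0.10, limma adjusted p = 0.574). Bsnd, which encodes the chloride channel subunit barttin, differed by -1.45 ± 0.19, with a dim acute mean of 1.88.

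The 2 cyclooxygenase genes differed in opposite directions. Ptgs2, the inducible cyclooxygenase COX-2, read 5.91, 5.80 and 5.81 in the acute arrays, 3.37, 3.32 and 3.22 in the long-term arrays and 3.84, 3.62 and 4.07 at 300 mosmol/kg. The acute values lay above both cultures, by 2.54 ± 0.11 over the long-term arrays (limma adjusted p = 5.62e-10) and by 2.00 over the 300 culture. Ptgs1, the constitutive COX-1, had means of 5.63 in the acute, 7.07 in the long-term and 5.47 in the 300 arrays and a difference of -1.44 ± 0.06. Ptges2, a prostaglandin E synthase, was higher by 1.13 ± 0.19, and Ptgr1, a prostaglandin reductase, differed by -2.09 ± 0.12. Over the list, 2 of 17 members were called higher and 5 lower.

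Markers of other cells of the medulla were measurable and partly moved. Of 15 smooth muscle contractile genes, 10 were called lower and 3 higher in the acute arrays, with a median of -0.68, and 12 had an acute mean below both cultures. Cnn1, which encodes calponin, read 3.08, 3.22 and 2.77 in the acute arrays against 5.19, 5.09 and 5.08 in the long-term and 5.70, 5.76 and 5.74 in the 300 arrays, a difference of -2.10 ± 0.15. Actg2 differed by -1.71 ± 0.12 and Acta2 by -0.68 ± 0.04, while Tpm1 was higher by 0.31 ± 0.06. The list's mean level was 4.92 to 5.01 over the acute and 5.67 to 5.76 over the long-term arrays. Of 15 endothelial genes, 10 were called lower and 0 higher, with a median of -0.52, led by Plvap, the diaphragm protein of fenestrated capillaries (-1.83 ± 0.10), and the receptors Tek and Kdr (both -1.02). Their mean level was 4.46 to 4.52 over the acute and 4.98 to 5.10 over the long-term arrays. Of 19 fibroblast genes, 8 were called lower, such as Col3a1 (-1.15 ± 0.07), and 2 higher, among them Postn (1.07 ± 0.06), at mean levels of 4.28 to 4.29 and 4.53 to 4.60. No member of these 3 lists was at 0, and the part of these cells in the principal cell, interferon and cell division results was not tested.

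Proteases and their inhibitors differed in both directions, with 8 of 20 called higher and 6 lower. Mmp13, a collagenase, read 6.84, 6.74 and 7.21 in the acute, 5.66, 5.39 and 5.49 in the long-term and 4.05, 4.19 and 4.15 in the 300 arrays, so that it was highest in the acute group, by 1.42 ± 0.10 over the long-term group. Mmp9, a gelatinase, was higher by 2.05 ± 0.11 and Mmp3, stromelysin, by 0.98 ± 0.15. Mmp7, matrilysin, read 3.53, 3.25 and 3.18 in the acute arrays against 5.38, 5.30 and 5.23 in the long-term and 5.22, 5.00 and 5.07 in the 300 arrays, a difference of -1.99 ± 0.11. The inhibitor Timp3 differed by -0.81 ± 0.07.

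The 15 largest differences in each direction, taken over features with 1 gene symbol that is no placeholder, include genes outside these lists. Olfm4, which encodes the secreted glycoprotein olfactomedin 4, had the largest of all: 7.49, 7.37 and 7.35 in the acute arrays, 2.35, 2.40 and 1.88 in the long-term arrays and 6.111, 6.004 and 6.105 at 300 mosmol/kg. The difference was 5.20 ± 0.12 (SE; limma adjusted p = 1.09e-12), 36.68-fold if the logarithm is base 2 and 180.7-fold if it is natural, from a long-term level under the lower quartile of its arrays (2.60). Slc26a4, the anion exchanger pendrin, differed by 2.51 ± 0.07, with an acute mean of 6.12 close to the 6.15 at 300 mosmol/kg, although 9 of the 15 intercalated cell markers were dim. Nos2, the inducible nitric oxide synthase, was higher by 2.33 ± 0.14, Hcar2, the niacin and ketone body receptor, by 2.40 ± 0.12, and Cd83, a surface protein of activated immune cells, by 2.41 ± 0.23. Clca4l (3.18 ± 0.14), Iapp, which encodes amylin (2.40 ± 0.19), and Dlgap5l2 complete this side. Hcar2, Cd83 and Iapp, like Il1b, were dim in the long-term arrays, so their differences may be understated. Nos2 lay just above the lower quartile there (2.62 against 2.60). Dlgap5l2 had 3 features, at 3.72, 3.70 and 2.15, all called higher.

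On the lower side, the genes outside the lists were Lypd2 (-3.69 ± 0.15), Alox15b, a lipoxygenase (-3.05 ± 0.14), Klhdc8a (-2.78 ± 0.14), Serpina3n, a protease inhibitor of the acute phase (-2.73 ± 0.19), and Acer2, the Golgi ceramidase (-2.70 ± 0.09). Lypd2 and Alox15b were under the lower quartile in the acute arrays.

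Set beside the 300 culture, the 30 genes can be placed as follows. All 15 genes that were higher in the acute arrays were called lower in the long-term arrays than at 300 mosmol/kg, and all 15 that were lower were called higher there. Over all symbols, 12.3% were called lower and 11.3% higher in that contrast, and the 30 genes were picked by their difference from the long-term arrays. Against the 300 culture the acute arrays had 5 of the first 15 called higher and 4 lower, and 5 of the second 15 called higher and 2 lower. Of all symbols, 7.92% were called higher and 11.5% lower there. By group means, 9 of the first 15 lay above both cultures in the acute arrays (Olfm4, Clca4l, Ptgs2 and Cd83 by more than 1 log unit) and 6 between them. Of the second 15, 9 lay between the cultures and 6 below both. The contrasts share arrays, so these placements are descriptions.

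The arrays with cyclosporin A give the same challenge in 3 further samples, although they are compared with the same long-term arrays. All 30 genes were called against the long-term arrays in the same direction, where 11% of symbols were called higher and 13.1% lower. The 30 had been picked by their distance from these same long-term arrays, so this count is no independent test. Between the acute arrays with and without the drug, 2 of the 30 were called: Il1a, with a difference of -0.42, and Acer2, with -0.47. Over all 28328 features, 116 were called between these groups.

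Amino acid transporters had 9 of 24 called higher and 4 lower. Slc38a4, a transporter of the same family as SNAT2, read 7.02, 7.09 and 7.13 in the acute arrays and 5.81, 5.86 and 5.81 in the long-term arrays, with 5.87, 5.85 and 5.82 at 300 mosmol/kg, a difference of 1.25 ± 0.06. Its acute values lay above both cultures, which overlapped with each other. Slc7a11, the cystine and glutamate exchanger, was higher by 1.01 ± 0.12 and Slc1a1, a glutamate transporter, by 0.93 ± 0.06, while Slc7a5, the large neutral amino acid transporter LAT1, differed by -0.68 ± 0.12. Junction genes had 1 of 20 called higher and 8 lower, with Cldn8, the claudin of the duct's paracellular barrier, at -1.43 ± 0.07, Cdh1, E-cadherin, at -0.48 ± 0.05 and Cldn4 at -0.06 ± 0.05, which was not called. Growth factors had 8 of 30 called higher and 5 lower. Ereg, an EGF receptor ligand, was higher by 0.98 ± 0.13 and Pdgfb by 0.80 ± 0.08, while Btc, another ligand of that receptor, differed by -1.08 ± 0.06. The count of growth factors called lower was 3 without acute replicate 3, long-term replicate 1 or long-term replicate 3, and 2 with the 6 arrays alone or with the 9 arrays of the 300, acute and long-term groups.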

How the data were processed

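Total RNA of primary rat IMCD cells was hybridised to Affymetrix whole-transcript arrays, per the labels' protocols. Each deposited value is the logarithm, of unstated base, of a feature's expression. Values run from 0 to 9.504, with 27 values at 0 in 16 features. Summarisation, normalization and log base are not given in the sources used here, and no background, pseudocount or filter was applied. The comparison had been planned on log values of a known base. Another base would multiply every difference by 1 constant without altering any p-value. The counts at the cutoffs of 1 and 0.5 log units would change with the base.

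Groups came from the labels. limma 3.58.1 in R 4.3.3 fitted 6 group means to all 18 arrays, with moderated variances (12 residual and 2.03 prior degrees of freedom). The Benjamini-Hochberg adjustment covered all 28328 features. A feature was called at an adjusted p under 0.05. Features under the arrays' lower quartile are termed dim. The script was tested on simulated data. The number of arrays, 3 per group, limits the precision.

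The platform's probe gene table gives 15295 features 1 symbol, 322 several and 12711 none, and 15264 matched RefSeq (GRCr8) by Entrez identifier, with 0 symbols changed. A symbol's representative is its feature with the highest mean. Of 713 symbols in 33 lists, 644 were measured. Named genes are the 15 largest called differences in each direction with 1 symbol and no overlap between groups, and any list member. Placeholder symbols (LOC, RGD, MGC) and those of olfactory or vomeronasal receptors and small RNAs were left out of the ranking. The comparison, lists, rules and promoter motifs were chosen with earlier results of these data known, the motifs for the lists that had moved. Promoters are RefSeq's, the first listed per gene. Alternatives were other sets of arrays, a replicate block, median centring, quantile normalization, a filter on the lowest 25% of features, an intensity trend and leaving out each array.

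The labels number the arrays 1 to 3 in each group. They do not say whether equal numbers mark a shared animal or preparation, so the main fit did not pair the arrays. Same-numbered acute and long-term arrays deviated from their group means with correlations of -0.03, 0.02 and -0.01 across features. Differently numbered arrays gave -0.08 to 0.09. No shared effect of the number was visible, but these values cannot settle whether the samples were paired.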

Additional observations from a re-analysis of the deposited data

How the results depend on the processing

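With only the 6 arrays in the fit, 3071 features were called and 1303 were higher. The counts of features lower, of at least 1 log unit and with intervals within 0.5 stayed within 1.5 times, as did every count under the other alternatives. Leaving out 1 array gave 3798 to 3966 called, 1604 to 1854 higher, 2112 to 2194 lower, 574 to 610 of at least 1 unit and 15027 to 15172 with intervals within 0.5. With the replicate number as a block, 4545 features were called. Centring each array on its median gave 4552, quantile normalization 4868 and an intensity trend 5275. The 30 genes with the largest differences kept their direction and call under all 13 alternatives. List medians changed sign 14 times, never for a list whose median exceeded 0.5 in size. Dropping the dimmest 25% of features moved the median of the principal cell list to -1.30, of the loop of Henle list to -1.27, of the intercalated cell list from -0.17 to -0.93, of the proximal tubule list from 0.11 to 0.57 and of the prostaglandin list from -0.14 to -0.02. Dim genes, such as Aqp2 in the acute arrays, limit the size of their differences, since no background level of the arrays was used here.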

Other observations

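Several metabolic and stress lists were split or level between acute and long-term 600 mosmol/kg. Of 25 mitochondrial respiration genes, 23 had a 95% interval within 0.5 log units of 0. The 2 called lower in the acute arrays were Ndufa4 (-0.14) and Ppargc1a, the coactivator of mitochondrial biogenesis, whose difference of -0.96 ± 0.13 came from a dim acute level (mean 1.96) against 2.91 in the long-term arrays. The call of Ndufa4 (limma adjusted p = 0.0372) was lost with median centring (0.0856) and without acute replicate 2 or 3 or any 1 long-term array (0.0529 to 0.152). Of 25 hypoxia and glycolysis genes, 5 were called higher and 10 lower. The secreted factors were on the higher side, with Adm, adrenomedullin, at 1.44 ± 0.16 and Vegfa at 0.78 ± 0.09. Glycolytic enzymes differed in both directions. Aldoc (-0.94 ± 0.10), Pfkfb3 (-0.95 ± 0.09) and Ldha (-0.37 ± 0.05) were on the lower side. Pgam1 (0.17 ± 0.04) was called higher, Hk2 had a difference of 0.55, and Eno1 (0.02 ± 0.04) was not called. Without long-term replicate 1, or with the 6 arrays alone, 3 of this list were called higher.

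Of 22 NRF2 genes, 5 were called higher and 6 lower in the acute arrays, and 8 higher once the dimmest 25% of features were dropped and 9 with an intensity trend. Sod2, the mitochondrial superoxide dismutase that NF-kB also induces, was higher by 0.64 ± 0.04 and Hmox1, heme oxygenase, by 0.56 ± 0.08. Gpx3, the secreted glutathione peroxidase, differed by -1.42 ± 0.09 and Gstm1, a glutathione transferase, by -1.39 ± 0.07. Of 27 ER stress genes, 7 were called higher and 4 lower, with a median of -0.01 that was 0.06 without long-term replicate 1. With the 6 arrays alone 2 of the 7 were called higher, and without acute replicate 1 it was 4. The serine synthesis genes Psat1 (-0.82 ± 0.07) and Phgdh (-0.82 ± 0.11) were among those called lower. Of 26 early response genes, 3 were called higher and 6 lower, with Egr1 at -1.23 ± 0.14 and Dusp4, a phosphatase of MAP kinases, at 0.97 ± 0.08. Of 24 sterol and fatty acid synthesis genes, 5 were called higher and 9 lower, and 3 were called higher without long-term replicate 1. With the 6 arrays alone 1 was called higher and 6 lower. Elovl6, a fatty acid elongase, differed by -0.97 ± 0.08 and Fasn, fatty acid synthase, by 0.41 ± 0.07.

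Among 14 tubule injury genes, 4 were called higher and 5 lower, and 3 lower without long-term replicate 3 or with the 6 arrays alone. Havcr1, the injury marker KIM-1, was higher by 0.57 ± 0.15, with means of 6.45 in the acute, 5.88 in the long-term and 5.21 in the 300 arrays. S100a6 differed by -0.82 ± 0.05. Of 16 matricellular genes, 6 were called higher and 4 lower, with Ankrd1 at 0.78 ± 0.07, Tgfb2 at 0.75 ± 0.06 and Ltbp2 at -1.55 ± 0.18. Of 13 keratin genes, 4 were called higher and 1 lower, with Krt23 at 1.08 ± 0.08 from a dim long-term level. The 1 called lower, Krt19 (-0.17 ± 0.05), lost its call without acute replicate 1, acute replicate 3 or long-term replicate 2. Calcineurin and NFAT genes, of the pathway that cyclosporin A inhibits, had 3 of 17 called higher, led by Rcan2 (0.67 ± 0.09), and 0 lower. Of 21 p53 and growth arrest genes, 4 were called higher and 3 lower. The reference genes Actb (0.00 ± 0.04) and Gapdh (-0.02 ± 0.04) were not called, whereas Hprt1 (0.53 ± 0.07) and Tfrc (0.52 ± 0.06) were called higher and B2m (-0.30 ± 0.04) and Pgk1 (-0.40 ± 0.08) lower.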
